A study of Mus musculus with 8 samples.

Results

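Commd8, Efcab7, Ckap2l and Esd are 4 protein-coding genes of the mouse whose transcripts were at low levels in full-grown oocytes labelled as an H2A.Z double knockout and in full-grown Mll2 knockout oocytes, each beside its own controls. Both genes of H2A.Z were higher, not lower, in the libraries labelled as that knockout, which are called mutant here by their label alone. The 4 genes were picked for the size of the difference in both mutant comparisons, out of 35976 gene symbols in the count table and 16847 that had enough counts to be tested. The differences between mutant and control oocytes are therefore given for these 4 genes as a description, without a test. The neighbouring genes and the other genes of each gene's pathway are tested. The pathway lists were chosen with earlier results of these data known.

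Full-grown oocytes are the oocytes that have finished growing in the ovary. They hold the stored transcripts with which the egg matures and the embryo begins. H2A.Z is a histone H2A variant found at the nucleosomes that flank gene starts, and MLL2, encoded by Kmt2b, is a methyltransferase that places methyl groups on lysine 4 of histone H3 at promoters. The 4 genes have separate roles. COMMD8 belongs to the COMM-domain family, whose members join CCDC22 and CCDC93 in the CCC complex and work beside Retriever, which returns membrane proteins from endosomes to the cell surface. EFCAB7 carries EF-hand domains and, with IQCE, anchors the EVC and EVC2 proteins near the base of the primary cilium, where Hedgehog signals pass. CKAP2L is a protein of the mitotic spindle and a paralogue of CKAP2. ESD, esterase D, is the S-formylglutathione hydrolase that follows ADH5 in the removal of formaldehyde.

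Polyadenylated RNA was measured in 8 libraries, 2 in each of 4 groups. The H2A.Z line had control oocytes with the genotype wild type and oocytes labelled as a double knockout (DKO) of H2A.Z.1 and H2A.Z.2, and the Mll2 line had wild-type (WT) and Mll2 knockout (KO) oocytes. Each library came from ovary oocytes pooled in a group of about 20, freed of the zona pellucida, with amplified cDNA. Not given in the sources used here are the Cre driver, the deleted exons, the strain, the age of the animals and whether replicates came from separate animals. The p-values below measure only the spread between these libraries, which may be technical.

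Totals were 20309233 to 30087863 counts per library, and replicates correlated across genes with Pearson's r from 0.984 to 0.989. The spread between replicates relative to counting error was largest in Mll2 KO, with a chi-square per degree of freedom of 40.7 against 4.96 to 13.3 in the other groups. Levels are given in normalised CPM, with counts scaled by each library's total multiplied by its TMM factor from edgeR. These factors ran from 0.887 in DKO 2 to 1.131 in Mll2 KO 2, and size scaling leaves them out. Differences are given in log2 with their standard error (SE). The word "called" stands for a Benjamini-Hochberg adjusted p under 0.05 over all tested genes in edgeR's quasi-likelihood test. Kmt2b, in CPM, was at 41.9 and 42.4 for Mll2 WT but at 8.73 and 9.28 for Mll2 KO. H2afz, the gene of H2A.Z.1, went against the DKO label, its CPM being 23.9 and 30 in control libraries but 322 and 317 where the label says DKO. H2afv, the gene of H2A.Z.2, was also higher there, at 285 and 294 CPM against 107.9 and 107.2 CPM. In the Mll2 line H2afz was called higher too, at 19.4 and 15.0 CPM in KO against 7.04 and 7.09 CPM in WT (log2 1.28, adjusted p = 1.21e-05). Kmt2b was called higher under the DKO label (log2 0.49, adjusted p = 0.018, but 0.0872 with size scaling). That call was also lost on leaving out any library of the H2A.Z line (log2 0.42 to 0.58) or Mll2 WT 2 (log2 0.37). The counts cover whole genes, so transcripts of an allele that lacks some exons are counted with intact ones. Every direction given for the libraries labelled DKO is that of the label. Oocyte markers summed to 31332 to 35415 CPM in the H2A.Z line and 21937 to 29286 CPM in the Mll2 line. Of 15 tested, Zp2, Npm2, Dppa3, Oosp1 and Kit were called lower in Mll2 KO (log2 -0.82 to -0.31) and none higher, while Figla and Ooep were called higher under the DKO label and none lower. Granulosa and cumulus markers summed to 407 and 415 CPM in H2A.Z controls, 450 and 406 CPM under the DKO label, 736 and 603 CPM with Mll2 WT, then 427 and 505 CPM in Mll2 KO. Most of this sum was Serpine2, with means of 312, 316, 568 and 370 CPM in these groups. Theca and stroma markers summed to 14.3 and 16.0 CPM in H2A.Z controls, 27.0 and 23.8 CPM under the DKO label and 8.93 to 10.2 CPM in the Mll2 line, and blood, immune and endothelial markers to 18.5 to 41.1 CPM, with 5 of 10 at 0 in every library. Nearly all of the last sum was Pecam1 (18.4 to 40.8 CPM), called higher under the DKO label (log2 0.56, adjusted p = 0.00787). Cd74 (15 and 2 counts) and Lyz2 (8 and 0 counts) had counts only under the DKO label. Of the theca and stroma markers, Cyp11a1 was called higher under the DKO label (log2 0.91). In Mll2 KO Star was called lower (log2 -1.84) and Dcn higher (1.03). Of 9 granulosa and cumulus markers tested, Cyp19a1, Kitl, Serpine2 and Cdh2 were called lower in Mll2 KO (log2 -1.63 to -0.62), Nr5a2 was called higher in both comparisons and Fst, with at most 16 counts, lower under the DKO label. Serpine2 had 5980 to 19239 counts, Cyp19a1 827 to 1553 and Cdh2 89 to 285. Inha had 11 and 6 counts in Mll2 WT against 42 and 27 in Mll2 KO. Hsd17b1 had 13 and 4 against 38 and 24 counts there, and Fst 2 and 6 against 15 and 10. None of these was called in Mll2 KO (adjusted p = 0.0511, 0.0896 and 0.117). The 3 markers not tested, Amh, Foxl2 and Wt1, had at most 5 counts in any library. The part of these markers in the results was not tested. In pooled oocytes, fewer cells with a transcript and less of it per cell cannot be told apart.

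The promoters of 3 of the 4 genes were matched in the RefSeq promoter table for GRCm38.p6 (mm10), and Efcab7 was not matched. They are shown because both mutants concern proteins that act at promoters and because these genes were low in both. Each sequence is the 250 bases before the start used in that table, read 5′ to 3′ on the gene's own strand, and capitals mark CG dinucleotides, the sites of DNA methylation. The start in the promoter table lies within the gene's listed span for Ckap2l and Esd, so that 16 bases of the Ckap2l window and 146 of the Esd window are inside the span given below. The windows are chr5:72168190-72168439 on the minus strand for Commd8, chr2:129297213-129297462 on the minus strand for Ckap2l and chr14:74732047-74732296 on the plus strand for Esd.
Commd8: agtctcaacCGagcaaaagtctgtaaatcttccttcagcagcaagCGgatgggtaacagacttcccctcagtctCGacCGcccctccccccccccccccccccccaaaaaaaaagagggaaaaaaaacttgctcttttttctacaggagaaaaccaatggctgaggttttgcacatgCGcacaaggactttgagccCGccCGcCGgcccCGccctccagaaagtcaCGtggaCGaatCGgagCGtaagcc
Ckap2l: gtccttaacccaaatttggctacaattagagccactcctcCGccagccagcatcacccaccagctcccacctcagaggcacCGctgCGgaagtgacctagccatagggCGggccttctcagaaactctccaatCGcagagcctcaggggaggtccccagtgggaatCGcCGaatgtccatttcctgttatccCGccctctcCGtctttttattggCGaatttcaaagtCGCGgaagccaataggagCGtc
Esd: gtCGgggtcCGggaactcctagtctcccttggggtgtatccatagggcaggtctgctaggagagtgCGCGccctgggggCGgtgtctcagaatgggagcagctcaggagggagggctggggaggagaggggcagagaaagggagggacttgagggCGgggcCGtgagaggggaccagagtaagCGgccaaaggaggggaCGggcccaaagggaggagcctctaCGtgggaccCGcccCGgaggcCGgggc
Each of the 3 windows held 13 CG dinucleotides, beside a median of 12 over the 15880 promoters of tested genes. The ratio of observed to expected CG was 0.71 for Commd8, 0.68 for Ckap2l and 0.51 for Esd, and the median of those promoters was 0.64. GC content was 55.6% for Commd8, 56.4% for Ckap2l and 68.4% for Esd, with a median of 57.2%. Of the promoters of tested genes 58.2% had a lower ratio than Commd8, 54.6% a lower one than Ckap2l and 39.7% a lower one than Esd.

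Motifs spelled by their letters were counted on both strands of these windows. GGGCGG, the core of the GC box, stood 3 times in the Commd8 window, 2 times in that of Ckap2l and 3 times in that of Esd, and 47.8% of the promoters of tested genes held it. CCAAT, the CCAAT box, stood once in the Commd8 window, 3 times in that of Ckap2l and nowhere in that of Esd, with 34.9% of those promoters holding it. CACGTG, an E-box, stood once in the Commd8 window, at a motif held by 7.7%, and in neither other window. TATAAA was in none of the 3, and 8.3% of the promoters of tested genes held it. No match of one motif overlapped a match of another, and no motif was shared by all 3 windows except GGGCGG.

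Commd8 (ENSMUSG00000029213.11, chr5:72156576-72168189, minus strand) had 641 and 866 counts in the H2A.Z controls and 53 counts in each library labelled DKO. In the Mll2 line it had 665 and 774 counts in WT, and 23 and 0 counts in KO. These were 33.1 and 34.5 CPM in H2A.Z controls, 2.35 and 2.52 CPM under the DKO label, 22.0 and 25.5 CPM with Mll2 WT, and 0.775 and 0 CPM in Mll2 KO. The groups did not overlap in either line, which the choice for large differences makes likely. The share of all tested genes separated in this way was not counted, here or for the other genes below. The log2 difference was -3.80 ± 0.44 under the DKO label, 13.9-fold lower, and -5.92 ± 0.55 in Mll2 KO, 60.6-fold lower. The remaining level was 7.19% of the control mean under the DKO label and 1.63% of the WT mean in Mll2 KO. The Mll2 KO value rests on few counts. The 23 counts of the first KO library have an exact Poisson 95% interval from 14.6 to 34.5, which covers counting error only. The second, with 0 counts, was at least 235-fold lower than the WT mean when set at a floor of 3 counts. Without that library the log2 difference in Mll2 KO was -4.97, and without the first it was -12.28, a fitted value against a single library at 0 and no bound.

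Efcab7 (ENSMUSG00000073791.11, chr4:99829445-99912788, plus strand) had 298 and 407 counts in the H2A.Z controls, and 21 and 47 counts under the DKO label. In the Mll2 line it had 589 and 628 counts in WT, and 15 and 31 counts in KO. In CPM it stood at 15.4 and 16.2 in H2A.Z controls, 0.932 and 2.23 under the DKO label, 19.5 and 20.7 in Mll2 WT, and 0.506 and 1.04 in Mll2 KO. Both mutant groups lay below both control groups, while the libraries labelled DKO and the Mll2 KO libraries overlapped. The log2 difference was -3.33 ± 0.31 under the DKO label, 10.1-fold lower, and -4.69 ± 0.32 in Mll2 KO, 25.8-fold lower. The libraries labelled DKO kept 5.89% and 14.1% of the control mean, and the Mll2 KO libraries 2.52% and 5.19% of the WT mean. In each line the second mutant library held more than the first. Without DKO 1 the log2 difference was -2.82 and without DKO 2 it was -4.08. In Mll2 KO it ran from -5.34 to -4.25 when each of the 8 libraries was left out in turn.

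Ckap2l (ENSMUSG00000048327.6, chr2:129268210-129297228, minus strand) had 566 and 693 counts in the H2A.Z controls, and 105 and 39 counts under the DKO label. In the Mll2 line it had 945 and 906 counts in WT, and 41 and 40 counts in KO. These were 29.3 and 27.6 CPM in H2A.Z controls, 4.66 and 1.85 CPM under the DKO label, 31.2 and 29.9 CPM with Mll2 WT, and 1.38 and 1.34 CPM in Mll2 KO. The Mll2 KO replicates were close to each other, whereas the first library labelled DKO was well above the second, and no mutant library reached a control. The log2 difference was -3.12 ± 0.27 under the DKO label, 8.66-fold lower, and -4.48 ± 0.29 in Mll2 KO, 22.3-fold lower. The remaining level was 11.4% of the control mean and 4.46% of the WT mean. Without DKO 1 the log2 difference under the DKO label was -3.93, and without DKO 2 it was -2.61.

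Esd (ENSMUSG00000021996.16, chr14:74732151-74750765, plus strand) had 1567 and 1966 counts in the H2A.Z controls, and 218 and 257 counts under the DKO label. In the Mll2 line it had 1464 and 1589 counts in WT, and 87 and 113 counts in KO. These were 81.0 and 78.3 CPM in H2A.Z controls, 9.67 and 12.2 CPM under the DKO label, 48.4 and 52.4 CPM with Mll2 WT, and 2.93 and 3.80 CPM in Mll2 KO. All 4 groups were apart from each other, with the H2A.Z controls highest and Mll2 KO lowest. The log2 difference was -2.87 ± 0.16 under the DKO label, 7.29-fold lower, and -3.90 ± 0.17 in Mll2 KO, 15.0-fold lower. The libraries labelled DKO kept 13.7% of the control mean and the Mll2 KO libraries 6.68% of the WT mean. Of the 4 genes Esd had the most counts in the mutant libraries and the smallest SE.

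**Figure D1:**
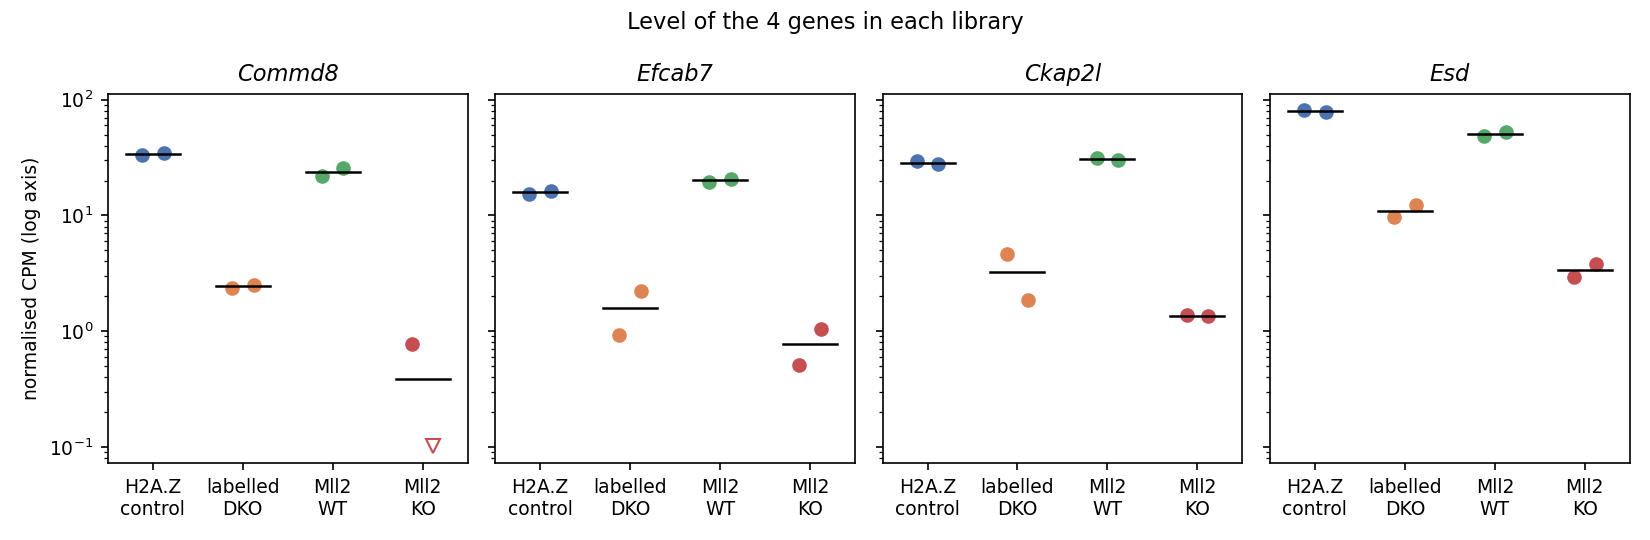
Normalised CPM of the 4 genes in each of the 8 libraries, on a log axis, with a point for each library, a line at the mean of the 2 libraries of a group, and an open triangle at the floor of 3 counts for the Mll2 KO library in which Commd8 had 0 counts. In each panel the mutant points lie below all control points of both lines, and the Mll2 KO mean is below the mean under the DKO label. The genes were picked for large differences, and the share of all tested genes separated in this way was not counted.

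The order of the group means was the same at its lower end for the 4 genes, with Mll2 KO lowest and the libraries labelled DKO just above it. For Commd8 the means were 33.8 ± 0.967 CPM (SD, n = 2) in the H2A.Z controls, 23.8 ± 2.50 in Mll2 WT, 2.43 ± 0.116 under the DKO label and 0.388 ± 0.548 in Mll2 KO. For Efcab7 Mll2 WT came first at 20.1 ± 0.876 CPM, then the H2A.Z controls at 15.8 ± 0.573, the DKO label at 1.58 ± 0.919 and Mll2 KO at 0.774 ± 0.379, the last pair within their spread. Ckap2l measured 30.6 ± 0.962 CPM in Mll2 WT, 28.4 ± 1.17 in H2A.Z controls, 3.25 ± 1.98 under the DKO label and 1.36 ± 0.027 in Mll2 KO, where the last pair did not overlap but differed by less than the SD under the DKO label. For Esd the means were 79.7 ± 1.89 CPM in H2A.Z controls, 50.4 ± 2.83 in Mll2 WT, 10.9 ± 1.79 under the DKO label and 3.37 ± 0.611 in Mll2 KO, all apart.

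The 4 genes had lower values in both comparisons, which the choice fixed. Over the 16847 tested genes 11.5% were called lower under the DKO label, 16.2% were called lower in Mll2 KO, 4.39% were called lower in both, and 0.564% were called lower in both by more than 4-fold. Nothing is read from the members' count against these shares. The comparisons share no control samples. Among 7305 genes at 10 CPM or more in both control groups, ranked by the smaller of their 2 differences, Commd8 came first, then Efcab7 and Ckap2l, and Esd stood at place 6. The zinc finger genes Zfp959 (log2 -2.99 under the DKO label and -4.48 in Mll2 KO) and Zfp788 (-2.96 and -5.65) lay between Ckap2l and Esd, and Itgb3bp (-2.64 and -3.98) came just after Esd at place 7.

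All 4 genes differed from their control by more in Mll2 KO than under the DKO label. The log2 difference under the DKO label was above that in Mll2 KO by 2.13 ± 0.76 for Commd8, 1.36 ± 0.46 for Efcab7, 1.37 ± 0.40 for Ckap2l and 1.04 ± 0.22 for Esd, with a median of 1.36. Of the other 736 genes called lower in both comparisons, 416 (56.5%) had the larger difference in Mll2 KO, with a median gap of 0.07. Of the other 91 that were lower by more than 4-fold in both, 60 (65.9%) did, with a median gap of 0.35. The choice used both contrasts, so the gap was not tested for the 4 genes.

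**Figure D2:**
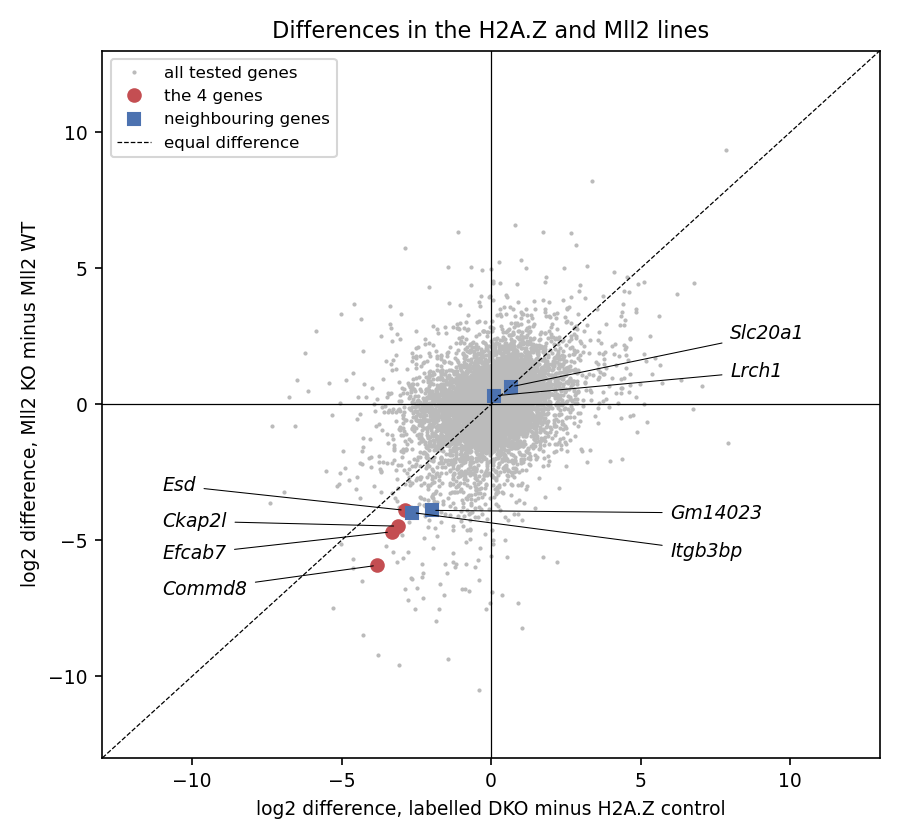
Log2 difference of each tested gene under the DKO label (horizontal axis) and in Mll2 KO (vertical axis), with the 4 genes as circles, 4 neighbouring genes as squares and the dashed line at equal differences. The 4 genes lie below that line, with Itgb3bp and Gm14023 beside them and Slc20a1 and Lrch1 near the middle.

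Between the control oocytes of the 2 lines the levels of the 4 genes are also a description without a test, since these libraries are the controls of both differences for which the genes were picked. Esd was higher in the H2A.Z controls than in Mll2 WT by log2 0.66 ± 0.14, or 1.58-fold, with no overlap between the groups. Commd8 was also higher there in both libraries, by 0.51 ± 0.36. Efcab7 lay lower in both H2A.Z controls, by -0.34 ± 0.24, and so did Ckap2l, by -0.10 ± 0.23. For Ckap2l the SE exceeds the difference. Over all tested genes 44.3% were called in this contrast, 19.0% higher in the H2A.Z controls and 25.3% lower. Line, batch and strain background cannot be told apart in this contrast.

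Log2 levels of the 4 genes were alike over the 8 libraries, with Pearson's r between 0.868 (Commd8 and Efcab7) and 0.96 (Efcab7 and Esd). These correlations describe 8 points that share the same control and mutant groups, which the choice made alike, and carry no test. The search for genes alike in pattern covered 7631 genes over 10 CPM in a control group, without predicted, clone, pseudogene and microRNA symbols. Those most like Commd8 in pattern were Rcbtb2 (r = 0.989), Mbip (0.987), Tom1l1 (0.986) and Pafah1b2 (0.985). For Efcab7 they were Ppp3ca (0.982), Stat5a (0.978), Btd (0.976) and Oxct1 (0.976), and for Ckap2l Pgm2 (0.994), Dhrs3 (0.986), Pot1a (0.986) and Samhd1 (0.984). For Esd they were Proca1 (0.995), Itgb3bp (0.993), Dusp19 (0.99) and Wfdc15a (0.99). Genes alike in pattern differed widely in size of difference. The log2 difference was -2.37 under the DKO label and -3.40 in Mll2 KO for Pgm2, and -0.42 and -0.94 for Mbip.

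The neighbours of the 4 genes were not used in the choice and were tested in both comparisons. Itgb3bp (chr4:99767406-99829215, minus strand), which encodes the centromere protein CENP-R, starts 229 bases from Efcab7 and is read in the opposite direction, so that the pair stands head to head. These positions are those of RefSeq, and a search of GENCODE starts did not list Itgb3bp near Efcab7. It had 615 and 850 counts in H2A.Z controls, 97 and 131 under the DKO label, 773 and 709 in Mll2 WT, and 51 and 41 in Mll2 KO. In CPM these were 31.8 and 33.9, 4.30 and 6.22, 25.6 and 23.4, and 1.72 and 1.38. Every mutant library was below every control library. The share of all tested genes separated in this way was not counted, here or for the neighbours below. Itgb3bp fell by log2 2.64 ± 0.19 under the DKO label, 6.25-fold (edgeR adjusted p = 2.26e-07), and by 3.98 ± 0.22 in Mll2 KO, 15.8-fold (adjusted p = 2.43e-09). Both calls held in the 14 alternative settings, with adjusted p of at most 3.59e-05 and 5.1e-06. Like Efcab7, Itgb3bp differed by more in Mll2 KO, by 1.33 ± 0.29 (adjusted p of the interaction contrast = 0.00432, beside 19.5% of all tested genes called in that contrast).

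Ckap2l also stands head to head with another gene. Gm14023 (chr2:129297370-129307826, plus strand), annotated as a long noncoding RNA, starts 141 bases beyond Ckap2l, at base 93 of the Ckap2l promoter window printed above. It falls outside the rule for naming genes and was singled out after its values were seen. Gm14023 had 32 and 51 counts in H2A.Z controls, 7 and 13 under the DKO label, 43 and 37 in Mll2 WT, and 4 and 1 in Mll2 KO. Its counts were low throughout, and all mutant libraries were below all controls. It fell under the DKO label (log2 -1.99 ± 0.49, adjusted p = 0.00662) and in Mll2 KO (log2 -3.90 ± 0.62, adjusted p = 0.000225). In the first comparison the call failed without H2A.Z control 2 (log2 -1.83, adjusted p = 0.0639) and without DKO 1 (log2 -1.57, adjusted p = 0.0862), while the call in Mll2 KO held in the 14 settings. Gm14023 overlaps Il1a on the other strand, and whether the counting used strand is not given in the sources used here.

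**Figure D3:**
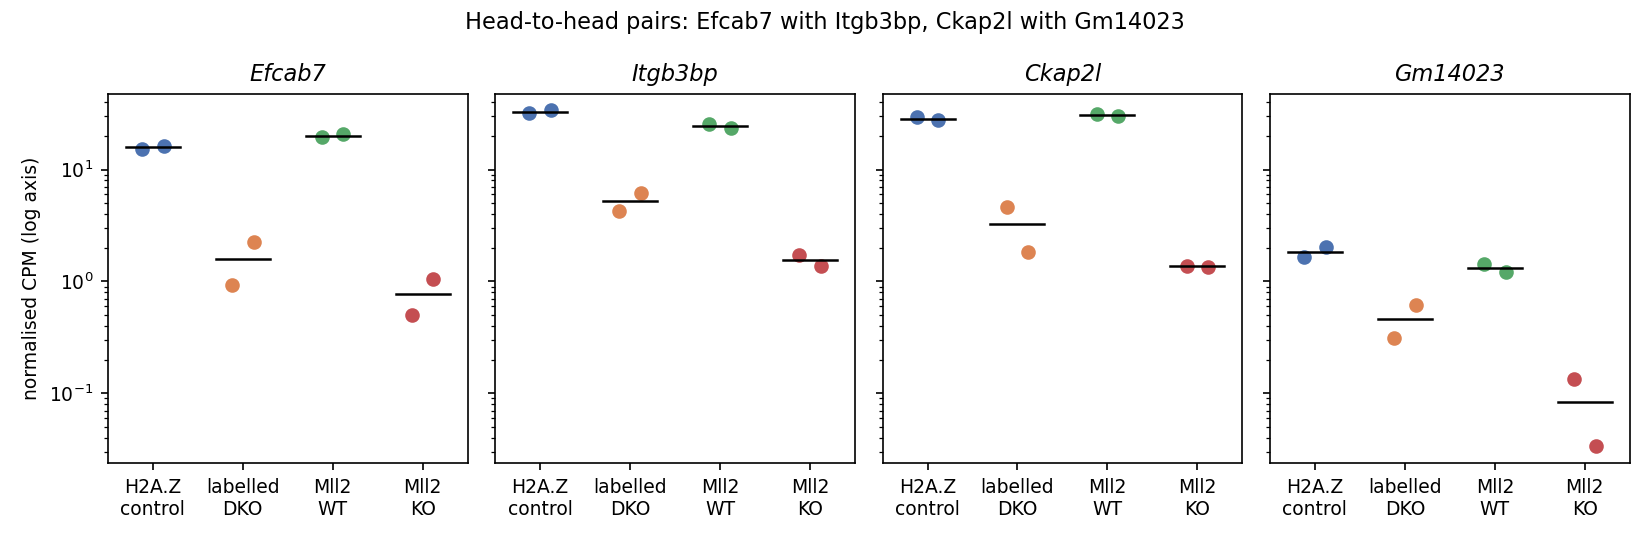
Normalised CPM by library, on a log axis, of the head-to-head pairs Efcab7 with Itgb3bp and Ckap2l with Gm14023, with a line at the mean of each group's 2 libraries. In each of the 4 panels the mutant libraries lie below the control libraries of both lines, with Gm14023 at 2.03 CPM or less throughout. The share of all tested genes separated in this way was not counted.

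Beyond Efcab7, away from Itgb3bp, the nearest gene is a phosphoglucomutase gene 16662 bases on, named Pgm1 in RefSeq with Pgm2 among its older symbols, while the gene now named Pgm2, on chromosome 5, has Pgm1 among its own. The count table has a row for each symbol and other symbols of older date, so that it could not be told which row counts the neighbour. In the row Pgm1 all 4 mutant libraries were below all controls, at 4.21 to 8.50 CPM against 8.79 to 11.2 CPM. This row was called lower under the DKO label (log2 -0.90 ± 0.20, adjusted p = 0.00374, but 0.0649 without DKO 1) and had a log2 difference of -0.49 ± 0.19 in Mll2 KO (adjusted p = 0.0625, and 0.0327 without Mll2 KO 1). Over the 14 settings its adjusted p ran from 5.72e-05 to 0.0649 and from 0.0327 to 0.2. The row Pgm2, named above for its likeness to Ckap2l, had log2 differences of -2.37 and -3.40.

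The other neighbours did not share the pattern of Itgb3bp and Gm14023. Slc20a1, a phosphate transporter gene 56594 bases from Ckap2l, rose in both, by 0.65 ± 0.14 (adjusted p = 0.00237) and 0.64 ± 0.13 (adjusted p = 0.00176). Lrch1, 3907 bases beyond Esd, differed by 0.10 ± 0.17 (adjusted p = 0.677) and 0.31 ± 0.16 (adjusted p = 0.16, and 0.00522 without Mll2 KO 1), and the first of these was -0.02 when libraries were scaled by their size alone. In Mll2 KO the adjusted p of Lrch1 ran from 0.00522 to 0.908 over the settings.

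Gabrb1, a GABA receptor subunit gene 7003 bases from Commd8, had 7 and 12 counts in H2A.Z controls, 2 and 5 under the DKO label, 2 and 7 in Mll2 WT, and 16 and 23 in Mll2 KO. It rose in Mll2 KO by log2 2.11 ± 0.71 (adjusted p = 0.034). The call did not hold with only the groups compared (adjusted p = 0.0516). Under the DKO label the gene's log2 difference was -1.37 ± 0.80 (adjusted p = 0.211). In Mll2 KO the call also failed without H2A.Z control 1 or 2, Mll2 WT 1 or 2, or Mll2 KO 2 (adjusted p = 0.0588, 0.0609, 0.253, 0.0596 and 0.168). Atp10d, Il1a and Htr2a, the remaining neighbours, had too few counts to be tested. Around the starts of Commd8 and Esd no other gene in GENCODE began within 1000 bases. The same search found no start near that of Efcab7, where RefSeq places Itgb3bp, so it can miss neighbours.

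Head-to-head pairs were then counted over the genome by RefSeq positions, matched by symbol, with starts at most 1000 bases apart on opposite strands and no overlap. Of the 14341 tested genes with a position, 1477 (10.3%) had a tested partner of this kind, as did 2 of the 4 genes. Leaving out the pairs of Efcab7 and Ckap2l, 6 of 737 such pairs (0.814%) had both genes called lower in both comparisons. Among the 50 pairs with at least 1 gene called lower in both, the same 6 pairs had both (12%). Among the 5 pairs with a gene lower by more than 4-fold in both, 4 had both genes called lower in both (80.0%). These counts rest on few pairs chosen by the same contrasts and are a description. The 4 pairs, named after their values were seen, are Hacl1 with Btd, Dclre1b with Ap4b1, Gla with Hnrnph2 and Dhrs11 with 4930502E09Rik, and the pair in which only 1 gene was called lower is Morn5 with Ndufa8. Hacl1 and Btd, which encode a fatty acid lyase of peroxisomes and biotinidase, had log2 differences of -5.09 and -1.51 under the DKO label and -2.93 and -2.07 in Mll2 KO. Gla and Hnrnph2, which encode a lysosomal galactosidase and an RNA-binding protein, had -1.84 and -2.55 under the DKO label and -7.96 and -7.52 in Mll2 KO.

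The other genes of each pathway were tested as 4 lists. These lists were chosen with earlier results of these data known, so their counts of calls are a description and no independent test. Of 102 genes in these lists 93 were tested, and 29 were called lower and 11 higher under the DKO label, while 29 were called lower and 6 higher in Mll2 KO. Over all tested genes 11.5% were called lower and 19.4% higher under the DKO label, and 16.2% lower and 14.4% higher in Mll2 KO. Over all tested genes the median log2 difference was 0.12 under the DKO label and 0.02 in Mll2 KO, and it was 0.00 and 0.14 when libraries were scaled by size alone, so small differences depend on the scaling.

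Among the partners of COMMD8, 15 COMMD, CCC and Retriever genes were tested. Under the DKO label 7 were lower and 1 higher, with a median of -0.21, and in Mll2 KO 4 were lower and 2 higher, with a median of -0.35. With size scaling 7 were lower and none higher, with a median of -0.34, under the DKO label, and 2 were lower and 2 higher, with a median of -0.23, in Mll2 KO. Commd9, a further COMM-domain gene, fell in both. Its CPM was 56.2 and 48.9 in the H2A.Z controls, against 24 and 27.1 under the DKO label (log2 -1.04 ± 0.14, adjusted p = 5.4e-05). For Mll2 WT it was 39.9 and 42, against 12.4 and 11 for KO (log2 -1.81 ± 0.14, adjusted p = 1.65e-07). Commd6 fell in Mll2 KO, its CPM being 38.3 and 36.5 with WT, against 6.44 and 6.02 (log2 -2.59 ± 0.13, adjusted p = 2.02e-09), and had a log2 difference of -0.01 ± 0.12 under the DKO label (adjusted p = 0.963). The calls of Commd9 in both comparisons and of Commd6 in Mll2 KO held in the 14 settings.

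Most other calls in this list were less firm. Commd5 was called lower in both (log2 -0.66, adjusted p = 0.0408, and -0.72, adjusted p = 0.0251). The first call was lost with no filter on low counts (adjusted p = 0.0595) and with a replicate block (0.0509). It was also lost without either H2A.Z control, either library labelled DKO or Mll2 WT 1 (log2 -0.88 to -0.46). The second call was lost with size scaling (adjusted p = 0.0614), with only the groups compared (0.0565) and without either WT library (log2 -0.75 and -0.7). Commd10 was called lower under the DKO label (log2 -0.58, adjusted p = 0.00458) and higher in Mll2 KO (0.54, adjusted p = 0.00668), with the first call lost without H2A.Z control 1 or DKO 1 (adjusted p = 0.0504 and 0.0821) and the second without Mll2 WT 1 (0.0663). Dscr3, which encodes the Retriever subunit VPS26C, moved likewise (log2 -0.62, adjusted p = 0.0127, and 0.80, adjusted p = 0.0021), and just the first call failed, without H2A.Z control 2 or DKO 1 (0.176 and 0.158). Of the other subunits, Ccdc22 (log2 -2.85, adjusted p = 0.0184), Fam45a (-0.75, adjusted p = 0.00335) and 9030624J02Rik, the gene of VPS35L (-0.42, adjusted p = 0.00795), were called lower under the DKO label, and Commd1 higher (0.34, adjusted p = 0.029). Each of these 4 calls was lost without H2A.Z control 1 (adjusted p = 0.111, 0.0555, 0.0516 and 0.0729). Ccdc22 was also lost without DKO 2 (0.127), Fam45a without DKO 1 (0.0506), and the calls of 9030624J02Rik and Commd1 without any of the other libraries of that line (0.0608 to 0.0744 and 0.0794 to 0.237). Commd1 was also lost without Mll2 WT 2 (log2 0.22) and with size scaling (adjusted p = 0.124). Vps29 was called lower in Mll2 KO (-0.42, adjusted p = 0.0181), but not without WT 1 or WT 2 (log2 -0.46 and -0.4). The call also failed with size scaling (adjusted p = 0.06) and with only the groups compared (0.0802).

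Around EFCAB7, 17 of 24 EvC, Hedgehog and cilium genes were tested. Under the DKO label 4 were lower and 2 higher, with a median of -0.22 (-0.34 with size scaling), and in Mll2 KO 2 were lower and 1 higher, with a median of -0.06 that became 0.06 when libraries were scaled by size alone. The direct partners of EFCAB7 had few counts. Evc had 17 and 29 counts in the H2A.Z controls and 6 in each library labelled DKO (log2 -1.88 ± 0.61, adjusted p = 0.0278), and Iqce had 6 and 28 against 5 and 2 (log2 -2.17 ± 0.74, adjusted p = 0.0353). The call of Evc was lost without any 1 of the 4 libraries (log2 -2.05 to -1.66), and that of Iqce without H2A.Z control 2, DKO 1 or DKO 2 (log2 -0.94, -2.89 and -1.71). With DESeq2 neither was called under the DKO label (adjusted p = 0.0702 and 0.0529). In Mll2 KO neither was called, with log2 differences of -1.58 ± 0.64 (adjusted p = 0.0736) and -0.38 ± 0.55 (adjusted p = 0.637).

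The largest difference in this list was that of Gli3, a transcription factor of the Hedgehog pathway. With WT at 19.8 and 39.6 CPM, it fell in Mll2 KO to a CPM of 0.438 and 0.773 (log2 -5.60 ± 0.50, adjusted p = 4.08e-05), and under the DKO label its log2 difference was 0.53 ± 0.35 (adjusted p = 0.28). Gli2, its relative, rose in Mll2 KO (log2 1.18 ± 0.18, adjusted p = 0.000167). Gli2 was also called higher under the DKO label (0.56 ± 0.20, adjusted p = 0.0478), a call lost whichever of the 8 libraries was left out (log2 0.41 to 0.74). Size scaling (adjusted p = 0.14), relative log expression scaling (0.0737), only the groups compared (0.0864) and DESeq2 (0.0824) lost it too. Arl13b, a GTPase gene of the cilium, fell under the DKO label (-0.89 ± 0.18, adjusted p = 0.00171), and Sufu, the gene of an inhibitor of the GLI factors, rose there (0.76 ± 0.16, adjusted p = 0.00238). Ift88, of the intraflagellar transport machinery, was called lower (-0.72 ± 0.19, adjusted p = 0.0103), but not without any 1 of the 4 libraries of that line (0.0503 to 0.0874). Tulp3 was called lower in Mll2 KO (-0.36 ± 0.12, adjusted p = 0.0374), a call lost without any 1 of the libraries except Mll2 KO 2 (log2 -0.43 to -0.25). It was also lost with relative log expression scaling (adjusted p = 0.0579), size scaling (0.177) and a replicate block (0.0509). With only the groups compared and with DESeq2 it was lost too (0.109 and 0.0545).

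Of the genes of the mitotic spindle and the activators of the APC/C, the ubiquitin ligase that targets CKAP2L, all 31 were tested. Under the DKO label 12 were lower and 5 higher, with a median of -0.07, and in Mll2 KO 13 were lower and 2 higher, with a median of -0.15. With size scaling these became 13 lower and 1 higher, with a median of -0.19, and 8 lower and 3 higher, with a median of -0.03. Ckap2, the paralogue of Ckap2l, was named after its values were seen and was called in neither. Its CPM was 239 and 230 in the H2A.Z controls, against 221 and 209 under the DKO label (log2 -0.12 ± 0.11, adjusted p = 0.421, but 0.0204 without Mll2 KO 1 and 0.0205 without Mll2 KO 2). For Mll2 WT it was 188 and 228, against 195 and 179 for KO (log2 -0.15 ± 0.11, adjusted p = 0.308). Aurkb encodes a kinase that corrects chromosome attachment. It fell under the DKO label, with a CPM of 13 and 15.5 in controls against 4.61 and 3.28 (log2 -1.85 ± 0.20, adjusted p = 6.79e-06) and had a log2 difference of -0.06 ± 0.17 in Mll2 KO (adjusted p = 0.811).

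Haus1 and Haus4 encode subunits of augmin, which branches spindle microtubules. Haus1 fell in both comparisons, by log2 0.82 ± 0.15 (adjusted p = 0.000781) and 0.92 ± 0.15 (adjusted p = 0.000295). Haus4 rose in both, by 0.62 ± 0.10 (adjusted p = 0.000217) and 0.82 ± 0.10 (adjusted p = 1.38e-05). The calls of these genes held in the 14 settings. Of the genes called lower in both, 5 in all, the others were Tacc3 (log2 -0.57 and -0.63), Kif2c (-0.57 and -0.33), Aurkc (-0.35 and -0.34) and Prc1 (-0.30 and -0.81), and the first 3 of these were named after their values were seen. Tacc3 held in both. Kif2c was lost in Mll2 KO with size scaling (adjusted p = 0.125), with only the groups compared (0.0915) and without WT 1 (log2 -0.27). Prc1 was lost under the DKO label with a replicate block (adjusted p = 0.0695). It was also lost there without H2A.Z control 1, DKO 1, DKO 2 or Mll2 WT 1 (log2 -0.15, -0.24, -0.35 and -0.3). Aurkc was lost in Mll2 KO with size scaling (adjusted p = 0.0952) and with only the groups compared (0.0882). Its calls were also lost without any 1 of the libraries of the line tested, except the Mll2 KO libraries (log2 -0.39 to -0.32 under the DKO label, -0.38 to -0.32 in Mll2 KO). Besides Haus4, those called higher under the DKO label were Incenp, Numa1, Haus7 and Fzr1, named after their values were seen, and each lost its call with size scaling (adjusted p = 0.17, 0.0564, 0.0604 and 0.0576), without DKO 1 (0.325, 0.143, 0.061 and 0.0575) and without Mll2 WT 2 (0.203, 0.0654, 0.0537 and 0.0828). Incenp, Numa1 and Fzr1 were also lost without H2A.Z control 1 (0.182, 0.107 and 0.079), Incenp without H2A.Z control 2 or Mll2 WT 1 (0.135 and 0.0553), and Haus7 without H2A.Z control 2 or DKO 2 (0.185 and 0.13). Fzr1, whose product activates the APC/C, was the other gene called higher in Mll2 KO (log2 0.37, adjusted p = 0.0156). That call was lost with only the groups compared (adjusted p = 0.0715) and without WT 1, WT 2 or KO 2 (log2 0.37, 0.34 and 0.23).

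Of 32 genes of glutathione and aldehyde metabolism 30 were tested. Under the DKO label 6 were lower and 3 higher, with a median of 0.03 that became -0.01 with relative log expression scaling and -0.09 with size scaling, and in Mll2 KO 10 were lower and 1 higher, with a median of -0.15 that became -0.03, with 6 lower, under size scaling. Adh5, which makes the substrate of ESD, was named after its values were seen and was called in neither. Its CPM was 240 and 236 in the H2A.Z controls, against 245 and 239 under the DKO label (log2 0.02 ± 0.10, adjusted p = 0.903, and -0.10 with size scaling). For Mll2 WT it was 306 and 283, against 304 and 352 for KO (log2 0.15 ± 0.10, adjusted p = 0.274, but 0.0144 without Mll2 KO 1). Gss, the gene of glutathione synthetase, fell in both. Its CPM was 3.52 and 3.07 in controls against 0.931 and 1.09 under the DKO label (log2 -1.70 ± 0.34, adjusted p = 0.00159), and 4.50 and 5.57 with WT against 0.337 and 0.672 with Mll2 KO (log2 -3.31 ± 0.35, adjusted p = 4.64e-06). Both calls held in the 14 settings.

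Hagh, the gene of the hydrolase that releases glutathione after glyoxalase, fell under the DKO label, with a CPM of 28.2 and 27.9 in controls against 6.88 and 6.79 (log2 -2.04 ± 0.18, adjusted p = 1.41e-06). Aldh3a2, a fatty aldehyde dehydrogenase gene, fell there too (log2 -1.65 ± 0.22, adjusted p = 4.96e-05). Gstp1, a glutathione transferase gene, fell in Mll2 KO (log2 -2.03 ± 0.25, adjusted p = 0.00013), where its CPM was 29.5 and 47.8 with WT against 11.9 and 7.02. Mgst1 rose under the DKO label (1.33 ± 0.26, adjusted p = 0.00153) and was called lower in Mll2 KO (-0.99 ± 0.29, adjusted p = 0.0185), the second lost without WT 2 or KO 2 (0.262 and 0.0532). Mgst3 was called lower in Mll2 KO (-0.45 ± 0.12, adjusted p = 0.00914), lost without WT 2 (log2 -0.64 to -0.32 over single libraries left out). Its highest adjusted p over the 14 settings, 0.0538, came from a setting other than leaving out a library. Besides Gss, the genes called lower in both were Gsr (log2 -1.51 and -1.33) and Glo1 (-0.83 and -0.60), which encode glutathione reductase and glyoxalase and were named after their values were seen. Both lost their call under the DKO label without H2A.Z control 2 (adjusted p = 0.102 and 0.0768) and without DKO 2 (0.0784 and 0.0819), and in Mll2 KO without WT 2 (0.133 and 0.158). In Mll2 KO Glo1 was also lost without WT 1, KO 2 or either H2A.Z control (0.0973, 0.124, 0.054 and 0.0543). Those called higher were, beside Mgst1, Gclc and Akr1a1 under the DKO label and Gpx4 in Mll2 KO, also named after their values were seen. Akr1a1 lost its call with size scaling (adjusted p = 0.148) and with DESeq2 (0.0506). Each lost its call without 1 library, such as Gclc without H2A.Z control 1 or DKO 1 (0.0774 and 0.0524), Akr1a1 without any 1 of the 4 libraries of that line or either Mll2 WT library (0.0546 to 0.209) and Gpx4 without WT 1, WT 2 or KO 1 (0.0639, 0.184 and 0.0732).

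**Figure D4:**
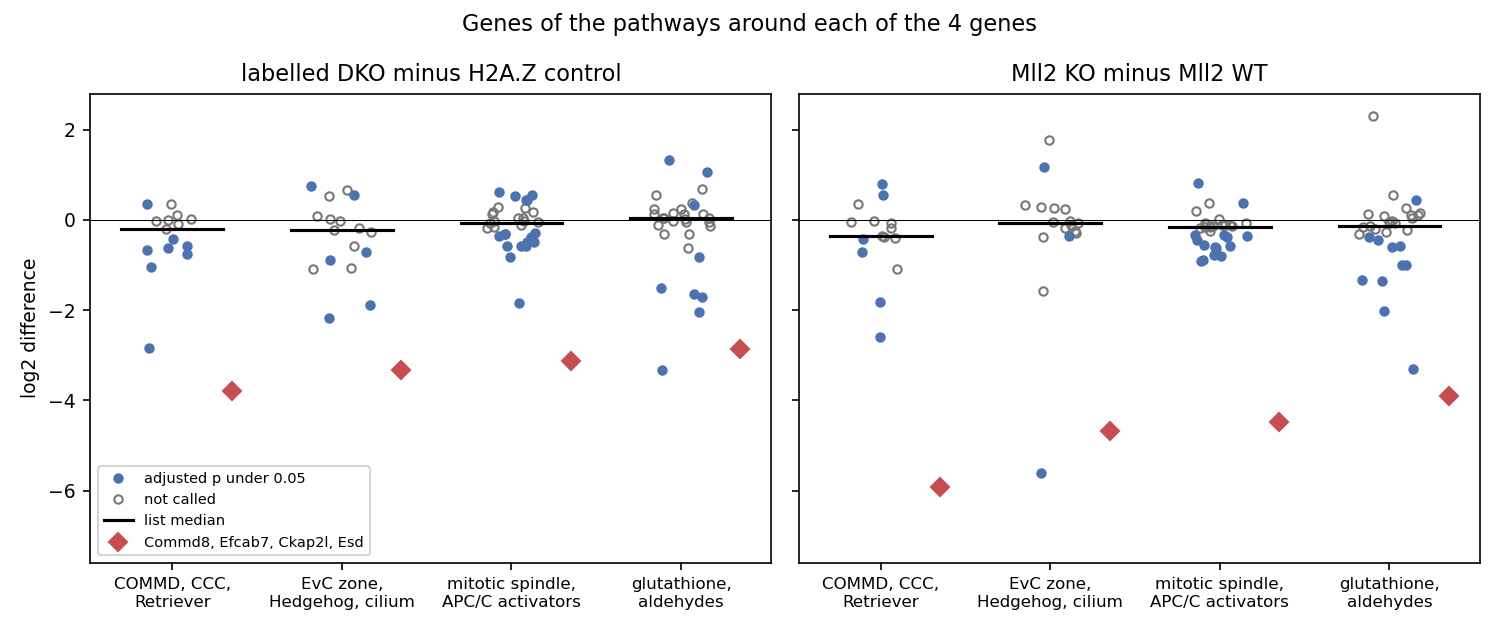
Log2 differences of the tested genes of the 4 lists under the DKO label (left) and in Mll2 KO (right), with filled points for adjusted p under 0.05, open points for the rest, a line at each list's median and a diamond for Commd8, Efcab7, Ckap2l or Esd beside its own list. The medians lie between -0.35 and 0.03, and each diamond is below every gene of its list except for Gstm1 beside Esd on the left and Gli3 beside Efcab7 on the right.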

How the data were processed

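The authors deposited 1 table of counts, whole numbers for each gene symbol in 8 libraries, not normalised. The submitters' processing notes list STAR 2.7.3, RSEM 1.3.1 and Trim Galore 0.6.4, and mm10 as the build. Not given in the sources used here are what each tool did, the annotation, the use of strand and any rounding of estimates. Libraries were prepared with the SMART-Seq v4 and Nextera XT kits, per the labels' protocols, and held 20309233 to 30087863 counts. The table had no other sample columns.

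Groups followed the labels. The analysis used edgeR 4.0.16 in R 4.3.3. Genes were kept with filterByExpr by group (16847 of 35976), TMM factors scaled the libraries, and 1 quasi-likelihood fit with robust estimation held the 4 group means. A gene was called at an adjusted p (Benjamini-Hochberg) under 0.05. Standard errors were derived from the F statistic, and correlations of log2 CPM used a prior count of 2. The scripts were tested on simulated data. DESeq2 1.42.0, relative log expression and size scaling, no filter, a replicate block, fits of the compared groups only and leaving out each library were the alternatives.

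The 4 genes and all gene lists were chosen with earlier results of these data known. The named genes were the 4 genes, the targeted genes, the nearest neighbours, up to 3 called list members with the smallest p per comparison, called direct partners, genes next in rank and the 4 most alike in pattern. Predicted, clone, pseudogene and microRNA symbols were left out of the neighbours and of the genes alike in pattern. Neighbours had to be in the count table. Gm14023, Ckap2, Adh5, the head-to-head pairs and list genes named for a count of 5 or fewer were added after their values were seen. The marker lists were oocyte, granulosa and cumulus, theca and stroma, and blood, immune and endothelial. Positions and promoters came from RefSeq on GRCm38.p6 (mm10), and strands from GENCODE M21. Levels were not compared between genes. A test of the 4 genes between the controls had been planned and is not given, because the choice used those libraries. Of 176 symbols of the 4 genes, their neighbours, the genes most alike and the lists checked against RefSeq's older symbols, only Pgm1 and Pgm2 had exchanged names. Leaving out 1 of 2 libraries of a group assumes that the lone library varies like the others.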

Additional observations from a re-analysis of the deposited data

Results flagged for a closer look

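These genes were picked out because their difference under the DKO label was not the same as in Mll2 KO by a test of the difference itself, the interaction contrast of the edgeR fit, in which 19.5% of all tested genes were called. Each value is the log2 difference under the DKO label minus that in Mll2 KO, so a positive value means a lower position in Mll2 KO. Of the neighbouring genes, Itgb3bp, which fell in both lines, stood at 1.33 (adjusted p = 0.00432) and Gabrb1, with at most 23 counts per library, at -3.48 (adjusted p = 0.0316).

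Of the partners of COMMD8, Commd6 stood at 2.58 (adjusted p = 2.23e-07) and Commd9 at 0.77 (adjusted p = 0.0118), both lower in Mll2 KO. Commd10 (-1.12, adjusted p = 0.000802) and Dscr3 (-1.42, adjusted p = 0.000745) were called lower under the DKO label and higher in Mll2 KO. Around EFCAB7, Gli3 stood at 6.14 (adjusted p = 0.000179) and Arl13b at -0.84 (adjusted p = 0.0249). Of the spindle genes, Aurkb stood at -1.79 (adjusted p = 0.000208), Haus7 at 1.43 (adjusted p = 0.00037) and Prc1 at 0.51 (adjusted p = 0.0272).

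In the glutathione and aldehyde list, Mgst1 (2.32, adjusted p = 0.000814), Gstp1 (2.17, adjusted p = 0.00131), Gss (1.61, adjusted p = 0.0321), Akr1a1 (0.71, adjusted p = 0.00493) and Mgst3 (0.71, adjusted p = 0.00814) lay lower in Mll2 KO. Hagh (-1.72, adjusted p = 0.000194) and Aldh3a2 (-1.60, adjusted p = 0.00107) lay lower under the DKO label. Gpx4 stood at -0.56 (adjusted p = 0.0484). It was called higher in Mll2 KO (log2 0.44), though not in every setting, and was not called under the DKO label (log2 -0.13, adjusted p = 0.514). The contrast was computed with TMM scaling and all libraries only.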

How the results depend on the processing

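The direction of all 4 genes in both mutant comparisons was the same in the 14 settings tried. Because the genes were picked for large differences in these comparisons, their direction is no independent check. With library size scaling, Commd8 under the DKO label was at -3.92, as with only the groups compared, and Ckap2l in Mll2 KO at -4.36. Leaving out single libraries gave -3.92 to -3.74 for Commd8 under the DKO label and -12.28 to -4.97 in Mll2 KO. Between the controls, given as a description, Commd8 stood at 0.52 and Efcab7 at -0.34 with only those groups, and Commd8 at 0.40 to 0.61 with single libraries left out. In all, 5198 genes were called under the DKO label and 2642 to 6568 with 1 library left out, and 5158 in Mll2 KO and 2681 to 6819. Called list members under the DKO label numbered 11 higher and 29 lower, with 3 to 11 and 14 to 38 on leaving out a library, and 4 higher with size scaling. In Mll2 KO they numbered 6 higher and 29 lower, with 3 to 10 and 12 to 37, and 17 lower with size scaling and 15 lower with only the groups compared. Fewer libraries and another filter go with those counts.

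Among neighbours, single libraries left out gave -1.08 to -0.73 for the row Pgm1, -0.02 to 0.18 for Lrch1 and -2.56 to -1.57 for Gm14023 under the DKO label. In Mll2 KO they gave 1.48 to 3.21 for Gabrb1, -0.58 to -0.43 for Pgm1 and 0.03 to 0.52 for Lrch1. Lrch1 under the DKO label turned to -0.02 with size scaling and with only the groups compared, and Gabrb1 in Mll2 KO stayed at 2.11 but lost its call with only the groups compared. The cause of these changes was not tested. Other values that changed sign were called in no setting except Gpx4 under the DKO label, called lower with only the groups compared (log2 -0.25, adjusted p = 0.0301), and Sufu in Mll2 KO, called higher without KO 1 (0.50, adjusted p = 0.0033). Under the DKO label they were Commd6 (0.01 without H2A.Z control 2, 0.05 without DKO 2, and -0.13 to 0.05 over single libraries left out), Gpx4 (0.01 without DKO 1, -0.27 to 0.01) and Adh5 (-0.02 with relative log expression scaling and DESeq2, -0.10 with size scaling, with only the groups compared and without Mll2 WT 2, KO 1 or KO 2). In Mll2 KO size scaling turned 9030624J02Rik to 0.08, Commd1 to 0.06, Arl13b to 0.07, Aurkb to 0.06 and Aldh3a2 to 0.07. Without Mll2 WT 1, 9030624J02Rik was at 0.07, Arl13b at 0.19 and Aldh3a2 at 0.10, without KO 1 Aldh3a2 at 0.15, and without KO 2 Commd1 was at 0.03, Sufu at -0.01 and Gclc at -0.14. Over single libraries left out these ran from -0.16 to 0.07 for 9030624J02Rik, -0.19 to 0.03 for Commd1, -0.27 to 0.19 for Arl13b, -0.31 to 0.15 for Aldh3a2, -0.01 to 0.50 for Sufu and -0.14 to 0.36 for Gclc.

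Of all calls under the DKO label 62.9% were higher, against 56.9% with relative log expression scaling, 45.5% with size scaling and 48.6% with only the groups compared. In Mll2 KO the share was 47.1% and 62.9% with size scaling. With the replicate number as a block, 4983 genes were called under the DKO label and 4944 in Mll2 KO. No shared litter or day is named in the labels, and replicate differences of mutant and control correlated across genes by 0.04 and -0.022, so the numbers were not taken as pairs. Counts of 0 to 23 limit what can be said of Commd8 in Mll2 KO, and few counts those of Gm14023, Gabrb1, Evc and Iqce.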
